A study of Mus musculus with 4 samples.

Results

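The netrin and Slit genes analysed here encode guidance ligands and their receptors, and were taken as a list of 10 gene symbols: the ligand genes Ntn1, Draxin and Slit2, the netrin receptor genes Dcc, Unc5a, Unc5b, Unc5c and Unc5d, and the Slit receptor genes Robo1 and Robo2. They were 10 of the 55341 genes counted in each library, and all 10 were among the 16617 genes with enough counts to be tested. RNA-seq was performed on cerebellar tissue of mice at postnatal day 14 (P14), with 2 libraries per genotype, each from an individual mouse. All 4 animals were homozygous for the floxed Kdm6b allele (Kdm6b fl/fl), in which loxP sites flank exons coding for the catalytic domain of the histone H3 lysine 27 demethylase KDM6B. The WT animals carried no Cre recombinase, and their Kdm6b-cKO littermates also carried Atoh1-Cre. Atoh1 is expressed in granule neuron precursors, so that Purkinje cells, interneurons, glia and vessels of the same tissue were not direct targets of the deletion. The comparison asked how loss of KDM6B in the granule neuron lineage altered the levels of these transcripts while granule neurons were maturing.

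Netrin-1 is a secreted, laminin-related cue that attracts axons through DCC and its relative neogenin, and repels them when UNC5 receptors take part. Draxin is a secreted protein that binds DCC and netrin-1, while the Slit proteins repel growing axons and migrating neurons through ROBO receptors. In the cerebellum these systems guide newly born granule neurons, which extend parallel fibres and migrate inward, and loss of UNC5C in mice lets granule cells and Purkinje cells spread beyond the normal cerebellar boundary.

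Of the members called as changed below, Draxin and Robo2 have an entry in the RefSeq promoter table, and the 250 bases before their start sites are printed because both genes rose. Both are given 5′ to 3′ on the minus strand of GRCm38.p6, with each CG dinucleotide (CpG) in capitals, from chr4:148130699-148130948 for Draxin and chr16:74411826-74412075 for Robo2.
Draxin: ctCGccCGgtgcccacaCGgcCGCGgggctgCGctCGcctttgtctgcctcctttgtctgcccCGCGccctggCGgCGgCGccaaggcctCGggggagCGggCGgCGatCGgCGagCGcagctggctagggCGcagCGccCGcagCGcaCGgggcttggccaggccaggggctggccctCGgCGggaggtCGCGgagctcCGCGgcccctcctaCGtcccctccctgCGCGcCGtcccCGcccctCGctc
Robo2: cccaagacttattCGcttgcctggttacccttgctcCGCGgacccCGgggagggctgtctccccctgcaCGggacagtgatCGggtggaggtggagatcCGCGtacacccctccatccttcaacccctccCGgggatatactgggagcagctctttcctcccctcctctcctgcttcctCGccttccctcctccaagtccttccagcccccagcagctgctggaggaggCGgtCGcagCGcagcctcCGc
The Draxin window held 36 CpG and was 79.6% G and C, and the Robo2 window held 14 CpG and was 65.6% G and C. Over all 32851 RefSeq promoter windows of this length the median was 6 CpG, and 97.4% of windows held fewer than that of Draxin and 70.6% fewer than that of Robo2.

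The same count was made for the other members with an entry, 7 of the 10 in all. Unc5b had 27 CpG, Unc5a and Slit2 had 25 each, Unc5c had 23 and Robo1 had 11. RefSeq listed 3 windows for Robo2. The one printed lies directly before the GENCODE start of the gene, while the other 2 held 8 and 4 CpG. Thus the windows of Draxin, Slit2, Unc5a, Unc5b and Unc5c were rich in CpG, at 23 or more against 13.3% of all windows, whether or not the gene's level changed, and those of Robo1 and Robo2 held fewer. Dcc, Ntn1 and Unc5d had no entry.

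The libraries held between 8811849 and 9892363 counts in genes, and the tissue label was borne out by markers of granule neurons and Purkinje cells, with summed levels of 4191 to 5721 and 5086 to 5771 CPM, the counts of a gene relative to the library total after TMM scaling. The brainstem markers, led by Tph2 and Prph, summed to 2.38 to 3.25 CPM, and Slc6a4 and Hoxb5 were at 0 in every library. Kdm6b itself, of which only part of the counted exons is floxed, fell by 0.33 on the log2 scale, from 154 and 154 CPM to 127 and 119 CPM (SE 0.076, edgeR adjusted p = 0.0162), a call lost without any 1 library (edgeR adjusted p = 0.141 without WT 1 and 0.111 without WT 2). WT 1 stood apart in sex-linked genes, with Xist at 0.431 CPM against 1359 to 1599 CPM elsewhere and 4 Y genes summing to 233 CPM against at most 0.672 CPM, so sex differed within WT and partly followed genotype. The choroid plexus markers, led by Ttr and Otx2, summed to 688 CPM in cKO 1 and to between 34.3 and 41.9 CPM in the other libraries, with 2 of 4 called higher.

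In Kdm6b-cKO cerebellum 3 of the 10 genes rose, 0 fell and 7 did not pass the test (edgeR quasi-likelihood test, Benjamini-Hochberg adjusted p under 0.05 over all tested genes, n = 2 each). At an unadjusted p under 0.05 these counts were 5 higher and 1 lower, against 1298 higher and 1412 lower of all 16617 tested genes. The genes that rose were Draxin, Dcc and Robo2, by 1.88-fold, 1.80-fold and 1.37-fold. Over all tested genes 1.87% were called higher and 2.17% lower, and the median log2 fold change was 0.21 over the 10 genes and 0.0036 over all tested genes. Both cKO libraries lay above both WT libraries for 6 members (Dcc, Draxin, Unc5c, Unc5d, Robo1 and Robo2) and below them for 1 (Unc5a), where 23.2% of all tested genes lay above and 23.2% below. The groups overlapped for Ntn1, Unc5b and Slit2. The 10 members were chosen with earlier results of these data known. Their counts and median are thus not a fair comparison with those of all tested genes. Because whole tissue was sequenced, a change in the number of cells of a type and a change in RNA per cell cannot be told apart in any of these values.

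**Figure D1:**
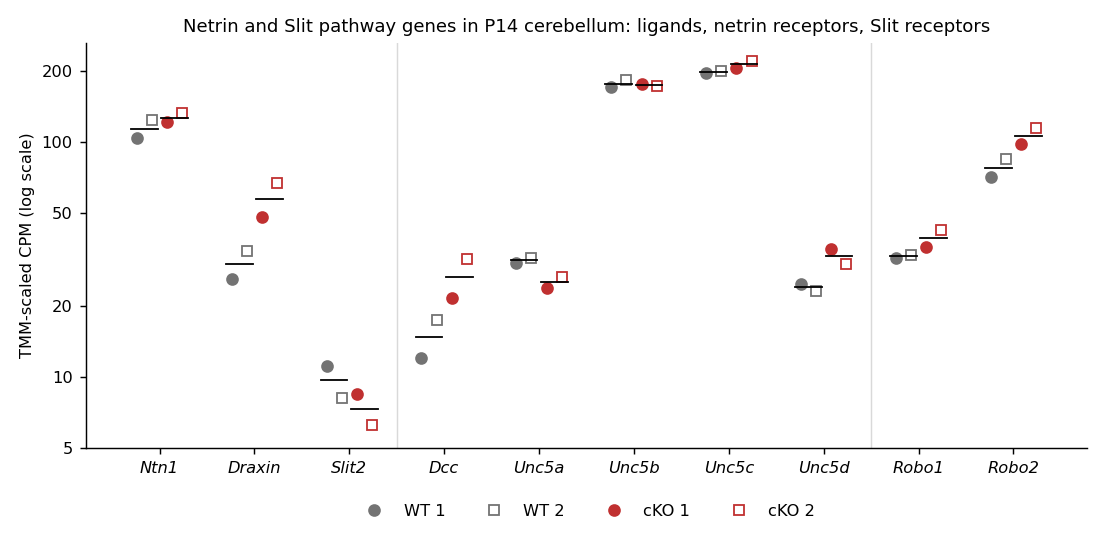
TMM-scaled CPM on a log scale for the 10 genes, a point for each library (grey for WT and red for cKO, circles for replicate 1 and squares for replicate 2) and a bar at each group mean; vertical lines separate ligands, netrin receptors and Slit receptors. Both cKO points of Draxin, Dcc and Robo2 sit above both WT points, while those of Unc5b lie among the WT points at 170 to 182 CPM.

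Among the ligands, Draxin rose. Draxin (ENSMUSG00000029005.4, minus strand, chromosome 4, 148098437 to 148130698) measured 26.2 and 34.4 CPM in the WT libraries and 48.1 and 66.5 CPM in the cKO libraries. The WT and cKO libraries did not overlap, although the 2 libraries of each group were themselves 0.39 (WT) and 0.47 (cKO) apart on the log2 scale. The mean rose from 30.3 ± 5.82 to 57.3 ± 13.1 CPM (SD, n = 2 each), a log2 fold change of 0.91 (SE 0.14, 95% interval 0.62 to 1.21, edgeR adjusted p = 5.56e-04). Against the WT mean, cKO 1 was higher by 0.66 and cKO 2 by 1.13 on the log2 scale. Draxin is the one member annotated with a single transcript, and with a span of 32.3 kb it is close to the median of 25.9 kb of the 13620 tested coding genes.

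Ntn1, which encodes the netrin-1 ligand (ENSMUSG00000020902.12, minus strand, chromosome 11, 68209364 to 68400823), measured 104 and 123 CPM in WT against 121 and 132 CPM in cKO. The groups overlapped. The fitted difference was 0.16 on the log2 scale (SE 0.088, edgeR adjusted p = 0.401), and the 95% interval of -0.03 to 0.34 ended below that of Draxin. Slit2 (ENSMUSG00000031558.15, plus strand, chromosome 5, 47983138 to 48307733), the Slit ligand of the list, was the member with the fewest counts, with 104 and 76 for WT and 84 and 56 for cKO. As CPM these were 11.2 and 8.21 against 8.47 and 6.27, and the groups overlapped. The log2 fold change of Slit2 was -0.39 with a wide 95% interval of -0.88 to 0.10 (edgeR adjusted p = 0.443). Counting error alone amounted to 9.81% to 13.4% of each value, and the libraries of a group were 0.45 (WT) and 0.43 (cKO) apart on the log2 scale in absolute size.

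Of the netrin receptors, Dcc rose and the 4 Unc5 genes did not pass the test. Dcc, the receptor for netrin-1 and draxin, stood at 12.1 and 17.5 CPM in WT animals, compared with 21.8 and 31.7 CPM in cKO animals, from 112, 162, 216 and 283 counts. All cKO values exceeded all WT values, but the spread within a group was large, with 0.53 (WT) and 0.54 (cKO) between the 2 libraries on the log2 scale. The mean went from 14.8 ± 3.83 to 26.7 ± 7.02 CPM (SD, n = 2 each), a log2 fold change of 0.85 (SE 0.19, 95% interval 0.46 to 1.24, edgeR adjusted p = 0.0104). The value was 0.56 in cKO 1 and 1.10 in cKO 2 against the WT mean. Dcc (ENSMUSG00000060534.16, minus strand, chromosome 18, 71253634 to 72351069) is also the longest of the 10 genes, spanning 1097.4 kb, longer than 99.7% of tested coding genes.

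The Unc5 genes encode the receptors through which netrin-1 repels. Unc5d (ENSMUSG00000063626.6, minus strand, chromosome 8, 28646717 to 29219636) came nearest to the threshold, at 25.0 and 23.3 CPM in WT and 35.0 and 30.2 CPM in cKO. Its groups did not overlap, and its log2 fold change of 0.43 (SE 0.13, 95% interval 0.17 to 0.70) had an edgeR adjusted p of 0.0617. Unlike Dcc, Draxin and Robo2, Unc5d was higher in cKO 1 than in cKO 2.

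Unc5a (ENSMUSG00000025876.15, plus strand, chromosome 13, 54949411 to 55006018) was the member whose cKO libraries both lay below WT, at 30.6 and 32.1 CPM in WT and 23.99 and 26.7 CPM in cKO. The log2 fold change of Unc5a was -0.31 (SE 0.13, 95% interval -0.57 to -0.05, edgeR adjusted p = 0.207). Unc5a shares 34 exon bases, 0.816% of its exon length, with Hk3 on the opposite strand. The 2 most abundant Unc5 genes were nearly level between genotypes. Unc5b (ENSMUSG00000020099.8, minus strand, chromosome 10, 60762593 to 60831581) had 170 and 182 CPM in WT against 175 and 173 CPM in cKO (log2 fold change -0.017, 95% interval -0.17 to 0.13, edgeR adjusted p = 0.946), and the direction turned with scaling by library size alone, to 0.013. Unc5c (ENSMUSG00000059921.15, plus strand, chromosome 3, 141465216 to 141834924), the family member with the known cerebellar role, had 196 and 200 CPM in WT against 206 and 220 CPM in cKO. The groups of Unc5c were apart by little, with a log2 fold change of 0.11 (95% interval -0.04 to 0.25, edgeR adjusted p = 0.505), and 118 of its exon bases, 0.617%, are shared with the antisense gene Gm15688. The upper bounds of Unc5b and Unc5c lie below the lower bound of Dcc.

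Of the Slit receptors, Robo2 rose. Robo2 (ENSMUSG00000052516.19, minus strand, chromosome 16, 73891839 to 74411825) had 70.5 and 84.7 CPM in WT libraries against 98.1 and 114 CPM in cKO libraries. The lowest cKO library exceeded the highest WT library, and the 2 libraries of a group were 0.26 (WT) and 0.22 (cKO) apart on the log2 scale. Its mean rose from 77.6 ± 9.98 to 106 ± 11.4 CPM (SD, n = 2 each), a log2 fold change of 0.45 (SE 0.095, 95% interval 0.25 to 0.65, edgeR adjusted p = 0.00812). The values for cKO 1 and cKO 2 against the WT mean were 0.34 and 0.56.

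Robo1 (ENSMUSG00000022883.11, plus strand, chromosome 16, 72308306 to 73046095) lies 845.7 kb from Robo2 and is read from the opposite strand. It had 32.1 and 33.0 CPM in WT libraries against 35.7 and 42.2 CPM in cKO libraries. The groups did not overlap, with the 2 WT libraries close together and the cKO libraries 0.24 apart on the log2 scale. The log2 fold change of Robo1 was 0.25 (SE 0.12, 95% interval 0.01 to 0.50, edgeR adjusted p = 0.285), and since this interval overlaps that of Robo2, the call for 1 Robo gene and not the other does not show that they differ. That difference was not tested.

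**Figure D2:**
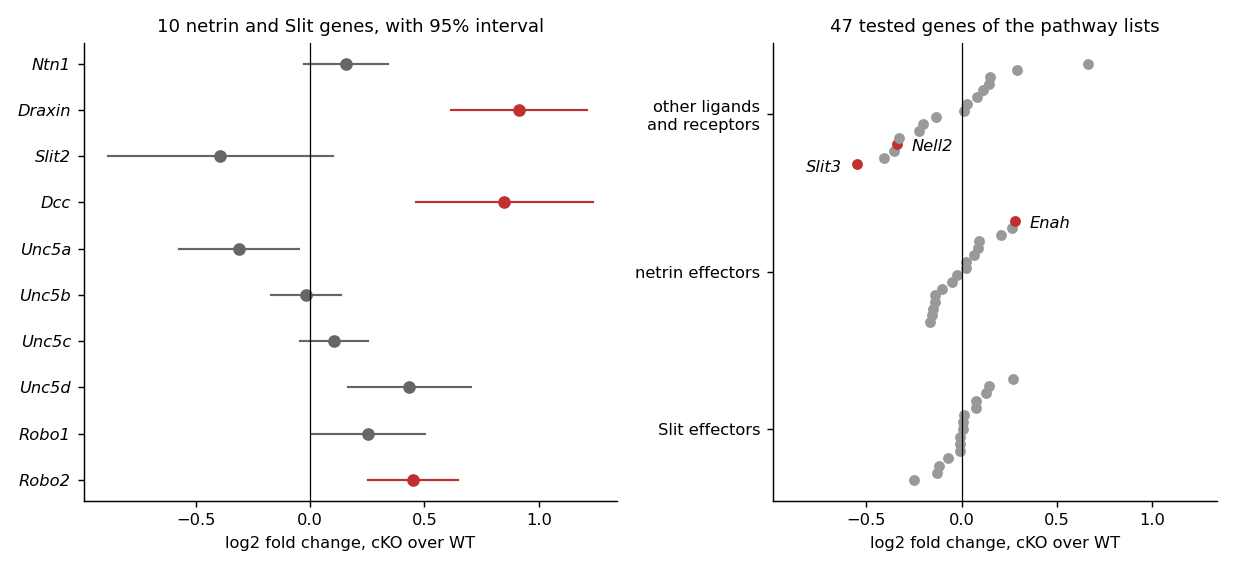
Left, log2 fold change (cKO over WT) of the 10 genes with the 95% interval of the edgeR fit; right, the fold changes of the 47 tested genes of the pathway lists, 1 point per gene, with genes past the threshold in red in both panels. Draxin (0.91), Dcc (0.85) and Robo2 (0.45) are the called members, and Slit3 (-0.55), Nell2 (-0.34) and Enah (0.28) the called genes of the lists.

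The calls rested on both cKO libraries. Without cKO 1 the edgeR adjusted p was 0.272 for Draxin, 0.313 for Dcc and 0.313 for Robo2, and without cKO 2 it was 0.493, 0.519 and 0.493. In those fits edgeR called 0 genes of the whole table, with 1108 higher and 1207 lower (without cKO 1) and 852 higher and 866 lower (without cKO 2) at an unadjusted p under 0.05, so that every call of the table was lost in them. The tools differed here, since DESeq2 without cKO 1 kept the calls of Draxin, Dcc and Robo2 and without cKO 2 kept none of them. In both fits DESeq2 called fewer genes of the whole table than with all libraries. The fold change of Dcc moved most, from 1.10 without cKO 1 to 0.56 without cKO 2 on the log2 scale, while Draxin went from 1.13 to 0.67 and Robo2 from 0.56 to 0.34.

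WT 1 carried weight as well. Without this library of the male pattern, the remaining 3 libraries shared the same pattern of sex-linked genes, and Draxin kept its call (log2 fold change 0.73, edgeR adjusted p = 1.28e-04). Dcc (0.61) and Robo2 (0.32) lost theirs in edgeR. Without WT 1 DESeq2 called no member, with Draxin at 0.73 and Robo2 at 0.32. Most calls of the whole table were lost in that DESeq2 fit as well. The part of sex in these differences was not tested. Without WT 2 Draxin, Dcc and Robo2 were called in edgeR, with log2 fold changes of 1.13, 1.14 and 0.59. DESeq2 without WT 2 called Draxin alone, and most calls of the whole table were lost there too. Each of the 3 was above 0 in all 4 edgeR fits with a library left out.

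**Figure D3:**
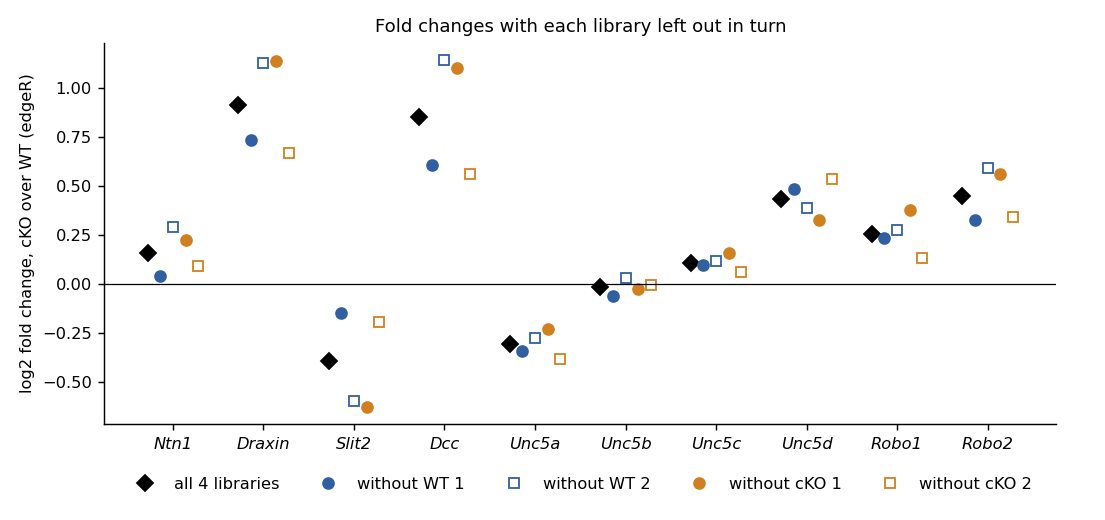
Log2 fold change (cKO over WT, edgeR) of the 10 genes with all 4 libraries (black diamonds) and with each library left out in turn (blue, a WT library out; orange, a cKO library out). Draxin, Dcc and Robo2 lie above 0 in each fit, from 0.67 to 1.13, 0.56 to 1.14 and 0.32 to 0.59, and Unc5b crosses 0.

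Levels were then compared between genes per kilobase of annotated exon (CPM per kb). In WT the order from the highest was Unc5b (28.1 ± 1.30), Ntn1 (18.1 ± 2.21), Unc5c (10.3 ± 0.124), Unc5a (7.52 ± 0.244), Draxin (5.83 ± 1.12) and Robo2 (4.57 ± 0.588). Below these came Unc5d (2.62 ± 0.130), Robo1 (1.97 ± 0.0385), Dcc (1.12 ± 0.291) and Slit2 (0.382 ± 0.0837). The repulsive receptor genes Unc5b and Unc5c thus had higher levels per kb than Dcc in this tissue, and of the neighbours in the WT order Draxin and Robo2 did not differ beyond their SDs.

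In cKO the order of the middle genes changed. Draxin reached 11.0 ± 2.51 CPM per kb, beside Unc5c at 11.1 ± 0.532, and Robo2 reached 6.25 ± 0.669 beside Unc5a at 6.08 ± 0.453. Dcc, at 2.03 ± 0.533, came beside Robo1 at 2.36 ± 0.280, and by this length these 3 pairs did not differ beyond their SDs. Unc5b, at 27.8 ± 0.312, and Ntn1, at 20.2 ± 1.30, stayed the highest 2 and Slit2, at 0.290 ± 0.0610, the lowest. The order also depends on which exons are counted as length. Per kb of the longest annotated transcript the WT mean was 20.5 for Unc5c, above Ntn1 at 19.3, and 9.03 for Robo2, above Unc5a at 7.85 and Draxin at 5.83. By that length the 3 cKO pairs lay apart. The cKO means were 22.1 for Unc5c against 11.0 for Draxin, and 12.4 for Robo2 against 6.34 for Unc5a. For Robo1 and Dcc they were 5.15 and 2.59.

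**Figure D4:**
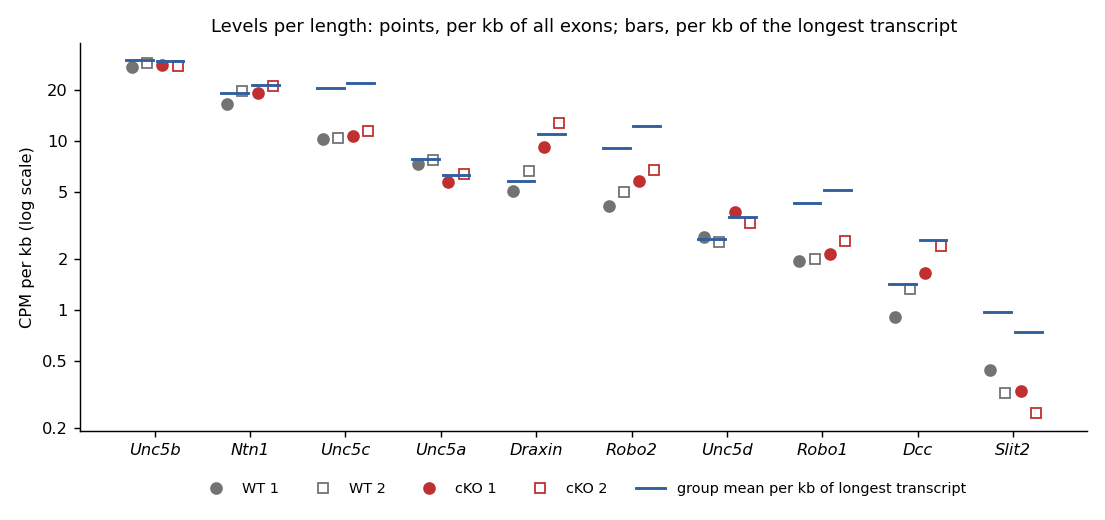
CPM per kb on a log scale for the 10 genes in WT order, with points for each library per kb of all annotated exons and blue bars for the group means per kb of the longest transcript. Unc5b is highest and Slit2 lowest by either length, and Unc5c, Robo2, Robo1 and Slit2 move up with the shorter length.

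Ratios of these levels within a library compare transcripts over the whole tissue. They do not give the balance of receptor proteins on a cell. Dcc to Unc5c was 0.0895 and 0.127 in WT and 0.154 and 0.209 in cKO, and the sum of Dcc and Neo1, the neogenin gene, to the sum of the 4 Unc5 genes was 0.417 and 0.413 in WT and 0.470 and 0.576 in cKO. Both ratios were higher in each cKO library than in each WT library. Robo2 to Robo1 was 2.13 and 2.49 in WT and 2.67 and 2.63 in cKO, also without overlap. The log2 change of this ratio was 0.20 with all libraries and 0.089 without WT 1. The ratio of the 3 Slit genes, Slit1, Slit2 and Slit3, to the 2 Robo genes went the other way, from 1.29 and 1.06 in WT to 0.632 and 0.659 in cKO, a log2 change of -0.86. Slit3, at 6.94 CPM per kb in WT and 4.75 in cKO, made up most of that sum, while Slit1, from 10 to 30 counts per library, had 2.80 and 1.08 CPM in WT against 2.82 and 3.36 CPM in cKO (log2 fold change 0.66, edgeR adjusted p = 0.496). The ligand Ntn1 to its receptors Dcc, Neo1 and Unc5a to Unc5d was 0.245 and 0.280 in WT and 0.271 and 0.275 in cKO, with overlapping groups. The size of these ratios also depends on the length used. Per kb of the longest transcript, the ratio of the Slit to the Robo genes was 0.779 and 0.635 in WT and 0.386 and 0.391 in cKO. Its log2 change was again -0.86. With 2 libraries per group an exact permutation test of a ratio cannot pass the threshold, and none was run. Among single genes, both cKO libraries lay above both WT libraries for 23.2% of all tested genes and below them for 23.2%.

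The other genes of the pathway were counted by list. Of 18 other ligand and receptor genes 16 were tested (Robo3 and Ntn5 had too few counts), and 2 fell, 0 rose and 14 did not pass, with a median log2 fold change of -0.061 and with 1 higher and 4 lower at an unadjusted p under 0.05. Slit3, a further Slit ligand gene, had 42.3 and 41.9 CPM in WT against 25.5 and 32.1 CPM in cKO (log2 fold change -0.55, SE 0.12, edgeR adjusted p = 0.0123). Nell2, whose secreted product is a ligand of ROBO3, had 318 and 324 CPM in WT against 264 and 244 CPM in cKO (log2 fold change -0.34, SE 0.069, edgeR adjusted p = 0.0063). Neither gene's groups overlapped. Both kept their calls without WT 1 (edgeR adjusted p = 0.0391 and 0.0471), and lost them with either cKO library left out (0.319 and 0.253 without cKO 1, 0.493 for each without cKO 2). Slit3 was also just short of the threshold in DESeq2 (adjusted p = 0.0507), and lost its call in limma-voom without WT 1 (adjusted p = 0.0750) and in DESeq2 without WT 2 (adjusted p near 1), as did Nell2 in edgeR without WT 2 (adjusted p = 0.0672). Neo1 had 165 and 167 CPM in WT against 183 and 224 CPM in cKO (log2 fold change 0.29, SE 0.084, edgeR adjusted p = 0.0525). Of 12 other settings Neo1 passed in 2. These were scaling by library size alone (edgeR adjusted p = 0.0267) and the replicate number as a block (edgeR adjusted p = 0.00252). It did not pass with upper-quartile scaling (edgeR adjusted p = 0.0787) or in DESeq2 (adjusted p = 0.133).

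Genes that act downstream of the receptors were counted next. Of 16 netrin effector genes 1 rose, 0 fell and 15 did not pass (median log2 fold change -0.0021), and of 15 Slit effector genes 0 passed in edgeR or DESeq2 (median 0.0082). At an unadjusted p under 0.05 in edgeR these lists held 2 higher and 2 lower, and 1 higher and 1 lower. Enah, which encodes an actin regulator of the Ena/VASP family, had 122 and 127 CPM in WT against 152 and 150 CPM in cKO (log2 fold change 0.28, SE 0.075, edgeR adjusted p = 0.0394). Its groups did not overlap, but its call was lost in DESeq2 (adjusted p = 0.106), with upper-quartile scaling (edgeR adjusted p = 0.0594) and without any 1 library (edgeR adjusted p = 0.388, 0.169, 0.307 and 0.493 without WT 1, WT 2, cKO 1 and cKO 2). The most abundant Slit effector genes per kb were Ndfip1, an adaptor of ubiquitin ligases, with a log2 fold change of -0.071 (edgeR adjusted p = 0.670), and Evl, a relative of Enah, with 0.13 (edgeR adjusted p = 0.516). Over all 47 tested genes of the 3 lists 1 rose and 2 fell, beside the 1.87% higher and 2.17% lower of all tested genes.

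Markers of granule neuron stages differed between the same libraries. The 7 progenitor markers, of which Barhl1 and Ccnd1 were the most abundant, summed in the order WT 1, WT 2, cKO 1, cKO 2 to 134, 155, 177 and 261 CPM, with 3 of 6 tested higher and 0 lower, and the 10 newborn granule neuron markers, led by Nrep and Cntn2, to 2926, 3120, 3410 and 3813 CPM, with 8 of 10 higher and 0 lower. The mature granule neuron markers, led by Fat2 and Cbln3, summed to 5538, 5721, 4805 and 4191 CPM, with 6 of 8 lower and 0 higher. Among these named markers, Barhl1 (log2 fold change 0.93) and Cntn2 (0.36) were called higher and Cbln3 (-0.29) lower. Ccnd1 (0.020), Nrep (-0.067) and Fat2 (-0.036) were not called (edgeR adjusted p = 0.960, 0.681 and 0.866). Dcc, Draxin, Unc5c, Robo1 and Robo2, 5 of the 10 members, ranked the libraries as the progenitor and newborn sums did (WT 1 lowest, then WT 2, cKO 1 and cKO 2), an order found for 7.37% of all tested genes. That order requires both cKO libraries above both WT libraries, as in 23.2% of all tested genes and in each called member. The members were also chosen with earlier results known, so the 2 shares are not a fair comparison. Atoh1, the defining progenitor gene, was at 0.431, 0.756, 0.504 and 2.02 CPM, too low to be tested.

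Markers of the other cell types in the tissue were summed in the same way. Purkinje cell markers, led by Itpr1 and Car8, summed to 5771, 5739, 5389 and 5086 CPM (1 of 7 higher, 1 lower), and those of Bergmann glia and astrocytes, led by Slc1a3 and Aqp4, to 3066, 3091, 2773 and 2754 CPM (0 of 6 higher, 2 lower). Oligodendrocyte markers summed to 9545, 9089, 8273 and 8316 CPM (0 of 5 higher, 1 lower), those of their precursors, led by Gpr17 and Pdgfra, to 198, 183, 214 and 251 CPM (1 of 3 higher, 0 lower), and interneuron markers, led by Pvalb and Gad1, to 1182, 1220, 1124 and 1050 CPM (0 of 7 called in edgeR, 3 lower at an unadjusted p under 0.05). For microglia (Csf1r and Cx3cr1 the most abundant), endothelial cells (Flt1 and Cldn5), and fibroblasts and mural cells (Col1a2 and Col1a1), 0 markers were called in edgeR, 1 fibroblast or mural marker was lower at an unadjusted p under 0.05, and the sums stayed within 74.6 to 83.8, 174 to 179 and 183 to 208 CPM. The unipolar brush cell markers Eomes and Lmx1a summed to 51.3, 58.2, 35.3 and 21.8 CPM, with 1 of 2 lower. The part of these shifts in the changes of Dcc, Draxin and Robo2 was not tested.

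**Figure D5:**
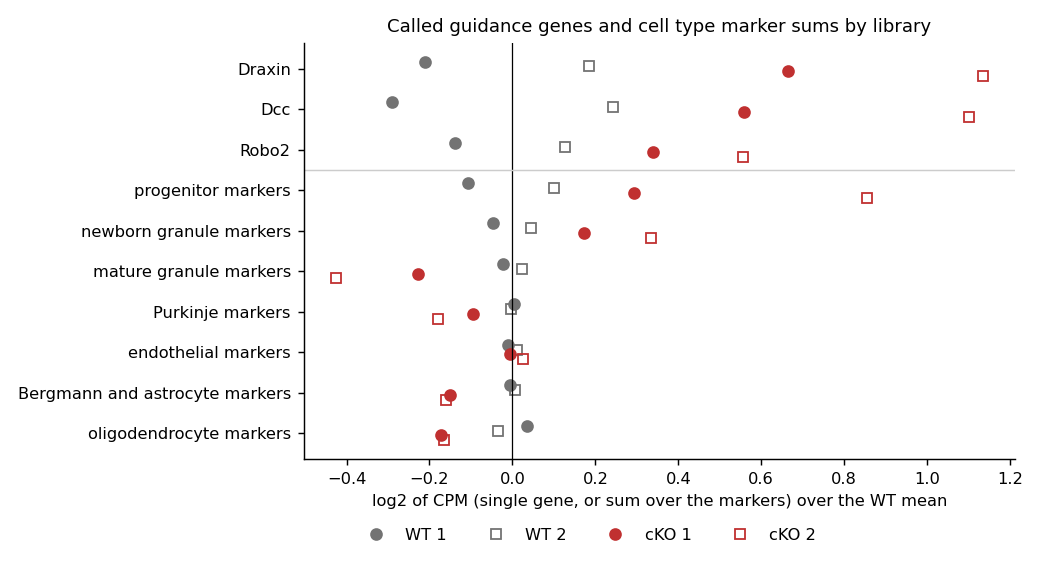
Log2 of CPM over the WT mean for Draxin, Dcc and Robo2 and for the summed markers of 7 cell types, a point for each library (grey for WT and red for cKO). Progenitor and newborn granule markers rank the libraries as the 3 genes do, mature granule markers are lowest in cKO 2, and endothelial markers stay near 0.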

How the data were processed

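RNA-seq libraries of P14 cerebellum from 2 WT and 2 cKO mice were grouped by their titles. Reads were trimmed (Trimmomatic 0.38), aligned by STAR 2.7.2b (genome GRCm38, mm10) and counted over exons with HTSeq by the authors, per their methods and the submitters' processing notes. The deposited values are raw counts per gene symbol. Whether strand was used is not given in the sources used here, so reads of overlapping antisense genes cannot be told apart. Rows that name no gene held 59.5% to 61.0% of entries and were left out.

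From these counts, genes passing filterByExpr were scaled by TMM (factors 0.986 to 1.02) and tested two-sided with edgeR 4.0.16 (glmQLFit, glmQLFTest) in R 4.3.3, with Benjamini-Hochberg adjustment over all genes and a threshold of 0.05. The biological coefficient of variation was 7.33%. The 2 libraries of a genotype differed beyond sampling noise, with a chi-square over its degrees of freedom of 3.51 in WT and 3.82 in cKO. Alternatives covered scaling, filters, DESeq2 1.42.0, limma-voom (limma 3.58.1), a replicate block and leaving out each library, where a lone library is assumed to vary like the other group. Scripts were tested on simulated data. Every symbol matched GENCODE M21, which gave coordinates and exon lengths.

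The members and lists were chosen with earlier results of these data known. All members were named, and of each pathway list every gene past the threshold or, where none passed, the 2 most abundant per exon length. Neo1 was named for its place in the ratios. Of each marker list the 2 genes of highest mean CPM were named, except where a gene is not reported here, and all listed genes entered the sum.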

Additional observations from a re-analysis of the deposited data

How the results depend on the processing

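Draxin passed the threshold in 10 of 12 other settings (scaling, filters, DESeq2, limma-voom, the block and edgeR without each library), and Dcc and Robo2 in 8 of 12, all with the same sign. With no filter on low counts, 28952 genes were tested and 1 member was called, with Dcc at 0.85 (edgeR adjusted p = 0.127) and Robo2 at 0.45 (edgeR adjusted p = 0.0963). There 0 pathway genes were higher and 0 lower (4 and 8 at an unadjusted p under 0.05 in edgeR), against 71 higher and 106 lower of all genes. DESeq2 called 137 higher and 183 lower of all genes, and 0 higher and 1 lower of the pathway genes. With 1 library left out, over edgeR, limma-voom and DESeq2, 0 to 3 members were higher and 0 to 263 of all genes were higher and 0 to 244 lower. In edgeR alone 0 pathway genes were higher and 0 to 2 lower. The log2 fold changes then ranged from 0.56 to 1.15 for Dcc, 0.67 to 1.15 for Draxin, 0.32 to 0.59 for Robo2 and -0.063 to 0.032 for Unc5b, without cKO 2 giving the lowest Dcc and Draxin values. The limma-voom and DESeq2 fits without 1 library were chosen after seeing the data. Library size alone gave 2 pathway genes higher and, among the members, Unc5b at 0.013 and Unc5d at 0.46 (edgeR adjusted p = 0.0421), while upper-quartile scaling gave 0 higher. The replicate numbers did not pair the libraries (r = 0.042 across genes between the deviations of replicate 1 of WT and cKO). With the replicate block, 549 genes were higher and 581 lower, 2 pathway genes were higher and Unc5d passed (0.43, edgeR adjusted p = 0.0275). The causes of these differences were not tested. Depth limits Slit2 most, at 56 to 104 counts. With 2 mice per group, p-values measure the spread between these libraries alone, and not between mice at large. In the edgeR fit the spread of each gene is also drawn toward that of the other tested genes. The edgeR p-values, SEs and intervals of a gene thus do not reflect only the spread between its own libraries.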
